A study of Mus musculus with 4 samples.

Results

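The genes described here are 39 genes listed for the type I interferon system. They are interferon receptors and their kinases, transcription factors, sensors of foreign RNA, antiviral effectors, negative regulators and genes of antigen presentation. Ifngr1 and Ifngr2 among them encode the interferon-gamma receptor, not the type I receptor. All 39 were chosen by name, and a gene was measured through every array probe whose RefSeq accession belongs to it. Of the 39 genes among 32301 gene or accession names on the array, 37 had a named probe (55 probes), 33 had a probe bright enough to test, and 4 (Irf7, Oas2, Ifit1 and Rsad2) did not. Mx1 and Mx2 had no named probe. RNA came from Hepa1c1c7, an established mouse hepatoma line. One group received 100 µM diethyl maleate (DEM), an electrophile that reacts with thiols and that the series title describes as activating NRF2, and the other received dimethyl sulfoxide (DMSO), its solvent. Exposure lasted 6 hours in both, with 2 RNA samples and 2 arrays per group. Nothing in the labels says whether the paired samples of a group were separate cultures, and the p-values therefore reflect only how far these samples differ, which may be technical variation. The extraction label speaks of liver although the other labels name the cell line.

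Type I interferons bind a receptor made of IFNAR1 and IFNAR2, and the attached kinases TYK2 and JAK1 phosphorylate STAT2, which acts with IRF9 in the nucleus. The complex they form binds the interferon-stimulated response element and switches on genes that block viral replication and present antigen. RIG-I (Ddx58) and MDA5 (Ifih1) detect foreign RNA in the cytosol and start interferon production, and USP18 and SOCS1 damp the signal.

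The DNA element through which interferon acts on its target genes is shown first; some of the genes described here hold it near their start and most do not. The pattern searched for, a core of the interferon-stimulated response element, was GAAA, then 2 bases of any kind, then GAAA. It was looked up on both strands from 250 bases before to 50 bases after each RefSeq transcription start (GRCm38.p6; the array design is annotated on mm9). The pattern was present in 3.44% of 32851 promoters and 3.99% of 27025 genes with a promoter in the table, and in 12 of the 31 interferon genes listed there (38.7%). Of the tested genes, it was present in 4 of 11 whose DEM signals lay below both DMSO signals, in 1 of 8 whose DEM signals lay above, and in 5 of 9 whose groups overlapped. A match is a description of letters, not evidence of binding. Below are stretches from a gene of each kind (Isg15 and Stat2 lower, Ifit3 higher, Bst2, Oas1a and B2m overlapping), in the direction of transcription with the matches in capitals. TTTC, 2 bases and TTTC are the same pattern read on the opposite strand, and matches can overlap, as in Isg15, Bst2 and Oas1a.
Isg15: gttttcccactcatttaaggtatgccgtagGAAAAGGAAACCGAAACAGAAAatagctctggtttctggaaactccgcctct
Stat2: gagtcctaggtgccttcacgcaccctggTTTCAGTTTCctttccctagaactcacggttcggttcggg
Ifit3: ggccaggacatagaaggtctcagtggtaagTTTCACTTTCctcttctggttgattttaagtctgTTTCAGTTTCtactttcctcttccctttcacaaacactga
Bst2: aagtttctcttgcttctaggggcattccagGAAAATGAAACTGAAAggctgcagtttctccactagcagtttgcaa
Oas1a: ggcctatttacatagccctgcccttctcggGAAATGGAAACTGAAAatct
B2m: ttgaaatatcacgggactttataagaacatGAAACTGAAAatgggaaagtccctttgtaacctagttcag
The Isg15 stretch lies at chr4:156200845-156200926 on the minus strand, with its first match starting 78 bases before the start of transcription, and that of Ifit3 at chr19:34583343-34583446 on the plus strand, with its first match starting 156 bases before. The Stat2 stretch lies at chr10:128270248-128270315 (plus), that of Bst2 at chr8:71537557-71537632 (minus), that of Oas1a at chr5:120907526-120907575 (minus) and that of B2m at chr2:122147518-122147587 (plus). In Ddx58, Eif2ak2 and Ifih1 the match began 3, 19 and 33 bases into the transcript, and Ifit1, Rsad2 and Socs1 also held the pattern.

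On the 4 arrays 50.4% to 52.6% of 41174 probes were brighter than background by the scanner software's flag, and 0 spots reached saturation. Within a group the arrays correlated at r = 0.994 over the 15537 genes tested, and arrays of different groups at 0.989 to 0.991, across genes, which are not replicates. The NRF2 target Hmox1 rose 23.4-fold with DEM (limma adjusted p = 0.00442) and the NRF2 target Nqo1 rose 5.10-fold (limma adjusted p = 0.0125). Without DMSO replicate 1 or DMSO replicate 2 neither passed (0.0701 and 0.127 for Hmox1, 0.143 and 0.144 for Nqo1, limma adjusted p), so leaving out either DMSO array ended even these calls. Of 13 hepatocyte and hepatoma markers 8 were tested, Afp and Alb among them, while Hnf4a, Ttr, Apoa1 and Ahsg were not well above background on any array. At an unadjusted limma p under 0.05, 3 of the 8 were higher (37.5%, against 9.02% of all genes) and 0 lower. These were Apob, Apoe (log2 change 0.56) and Afp (0.29), and none passed the threshold. Apob read 14.3 and 3.57 in DMSO, near background, and 51 and 119 in DEM. Of 10 macrophage and leukocyte markers 3 were tested (Csf1r, Cd14 and Fcer1g). Cd14 was lower on both DEM arrays (1760 and 1660 in DMSO, 1370 and 1140 in DEM; log2 change −0.45 ± 0.12, limma adjusted p = 0.176), Csf1r was higher on both (0.42 ± 0.20, limma adjusted p = 0.362), and Fcer1g overlapped. Their part in the interferon genes' values was not tested. The list summed to 2902 and 3193 in DMSO and 2608 and 3297 in DEM, and Adgre1, Itgam, Tyrobp and Laptm5 were at background. The plasmacytoid dendritic cell marker Siglech was at background (its list's other genes were tested: Tcf4 at a log2 change of −0.53, and Bst2 and Irf8, which are interferon genes as well), and 6 of 7 T and B cell markers and 4 of 5 endothelial markers were not tested for low signal. Of 7 fibroblast markers 5 were tested. Dcn (−0.26) and Col3a1 (−0.25) were lower on both DEM arrays, Pdgfrb (0.27) was higher on both, and Col1a1 (−0.17) and Acta2 (−0.03) overlapped; none passed the threshold. Their list, carried by Col1a1 and Dcn, summed to 73871 and 78490 in DMSO and 63210 and 71737 in DEM. Their part in the interferon genes' values was not tested either.

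In hepatoma cells given DEM for 6 hours, 0 of the 33 tested interferon genes passed the threshold of 0.05 after adjustment over all genes (limma, Benjamini-Hochberg), against 1.22% of all 15537 genes tested (0.714% higher and 0.508% lower). The lowest adjusted p was 0.0601. At an unadjusted limma p under 0.05, 10 were lower in DEM (30.3%, against 10.2% of all genes) and 2 were higher (6.06%, against 9.02%). The 10 were the receptor chains Ifnar2 and Ifngr2, the RNA-binding genes Ddx58, Eif2ak2, Adar and Oasl2, the effectors Isg15, Xaf1 and Parp14, and the negative regulator Usp18; the 2 were the kinase Tyk2 and the effector Ifit3. DEM and DMSO arrays did not overlap for 23 of the 33 (69.7%, against 50.6% of all genes), with 13 lower (39.4%, against 25.6%) and 10 higher (30.3%, against 24.9%). A log2 change of at least 0.50 in size was seen in 7 of the 33 (21.2%, against 11% of all genes), all of them lower: Oasl2, Ddx58, Oasl1, Usp18, Xaf1, Isg15 and Parp14. Of these 33, Oasl2 was well above background in DMSO alone, so it entered the test only through the group where it was brighter. Over the other 32, the unadjusted counts were 9 lower (28.1%) and 2 higher (6.25%). Of these 32, 12 lay apart below (37.5%) and 10 above (31.2%), and 6 had a change of that size (18.8%). The all-gene shares above cover genes well above background on at least 2 of 4 arrays, a wider set. The median log2 change over the 33 was −0.07, beside −0.01 over all genes. These shares were not tested, since the genes were chosen with results of these data known. The 95% interval lay within 2-fold either way for 28 of the 33, and reached beyond it for Ddx58, Oasl1, Xaf1, Usp18 and Oasl2, the last at background in DEM. Passing calls depended on the processing: 7 of the 33 passed when arrays were scaled on spike-in probes (8.55% of all genes did), 4 after normexp background correction (5.15%) and 3 with an intensity trend in the variance (4.67%). With a filter on all 4 arrays 1 passed (Ddx58; 2.92% of all genes), and with median scaling 1 did (3.65%), which was Oasl2. Oasl2 was also among the 7. So was Oasl1, whose DEM and DMSO arrays overlapped (limma adjusted p = 0.00919 with spike-in scaling and 0.427 as reported).

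**Figure D1:**
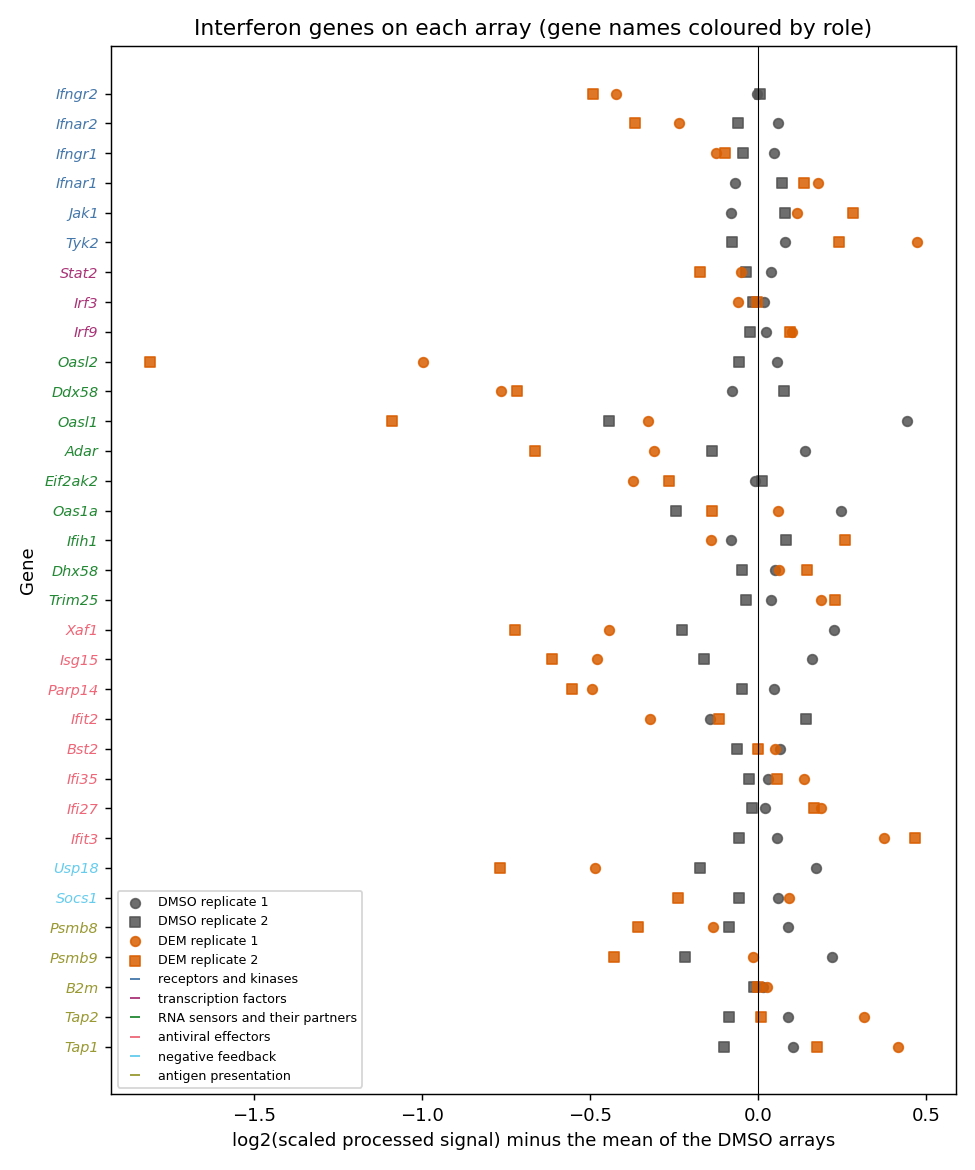
Signal of the 33 tested interferon genes on each array, as log2 of the scaled processed signal minus the mean of the DMSO arrays; grey points are DMSO, orange points are DEM, circles replicate 1 and squares replicate 2. The DEM points of Ddx58, Usp18, Isg15, Xaf1, Parp14 and Oasl2 lie left of both DMSO points, and those of Ifit3 and Tyk2 lie right of them.

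Of the 6 receptor and kinase genes, 0 passed the threshold, 3 lay lower on both DEM arrays and 3 higher. Of all genes tested, 1.22% passed, 25.6% lay lower without overlap and 24.9% higher. Signals below are processed signals after scaling every array to the same 75th percentile, each pair in the order replicate 1 and replicate 2. Ifngr2, the signalling chain of the interferon-gamma receptor, read 7640 and 7690 in DMSO and 5710 and 5450 in DEM, with both DEM arrays below both DMSO arrays. Its log2 change was −0.46 ± 0.09 (SE, n = 2 arrays per group; limma adjusted p = 0.0972), and its second probe gave −0.58. It was the receptor gene with the largest change, and it passed the threshold after normexp (limma adjusted p = 0.0347) and with an intensity trend (0.0212).

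Ifnar2, the chain of the type I receptor that docks STAT2, read 3400 and 3130 in DMSO and 2770 and 2530 in DEM (log2 change −0.30 ± 0.10, limma adjusted p = 0.227). The second Ifnar2 probe gave −0.07, a smaller change in the same direction. For the partner chains, the value was 0.16 ± 0.10 for Ifnar1 (limma adjusted p = 0.463) and −0.11 ± 0.09 for Ifngr1 (limma adjusted p = 0.572), the latter turning to 0.035 under median scaling. Tyk2, the kinase bound to IFNAR1, read 398 and 357 in DMSO and 523 and 445 in DEM, so that both DEM arrays were higher (0.35 ± 0.13, limma adjusted p = 0.244). Jak1, the kinase bound to IFNAR2, read 5820 and 6510 in DMSO and 6660 and 7480 in DEM on the brighter probe (0.20 ± 0.11, limma adjusted p = 0.432). Its second probe read 3030 and 3220 in DMSO and 2950 and 3200 in DEM (−0.02), so the Jak1 probes differed in sign. The median over these 6 genes was 0.02.

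The transcription factors of the pathway were nearly level. Stat2 read 353 and 335 in DMSO and 332 and 305 in DEM (log2 change −0.11 ± 0.10, limma adjusted p = 0.601). Irf9, the DNA-binding partner of STAT2, read 184 and 178 in DMSO and 194 and 193 in DEM (0.09 ± 0.08, limma adjusted p = 0.613). Irf3, the constitutive factor that starts interferon transcription, read 8760 and 8570 in DMSO and 8310 and 8640 in DEM (−0.03 ± 0.09, limma adjusted p = 0.882). The sign of each turned under at least 1 other setting. The 95% intervals of these 3 genes ran from −0.37 at the lowest to 0.32 at the highest. Irf7, the inducible amplifier of interferon genes, was not well above background on any array, with signals of 9.69 and 4.88 in DMSO and 5.20 and 6.25 in DEM.

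Among the RNA sensors, Ddx58 came nearest to the threshold and its relatives did not follow it. Ddx58, which encodes RIG-I, read 483 and 538 in DMSO and 300 and 310 in DEM, both DEM arrays being lower. That was 1.67-fold lower in DEM (log2 change −0.74 ± 0.10, 95% interval −1.01 to −0.48, limma adjusted p = 0.0601), and it passed in 4 of 15 other settings: normexp, spike-in scaling, a filter on all 4 arrays and an intensity trend. With the mean of its probes the log2 change was −0.40 (limma adjusted p = 0.457). Its other tested probes gave −0.40 and −0.07. The last of these read 46.2 and 57.9 in DMSO and 88.8 and 27.4 in DEM, so its DEM arrays differed from each other more than the groups did.

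Ifih1, which encodes MDA5, read 1730 and 1940 in DMSO and 1660 and 2190 in DEM, overlapping (0.06 ± 0.17, limma adjusted p = 0.895). Dhx58, which encodes LGP2, the relative of RIG-I and MDA5 that lacks signalling domains, read 102 and 95.4 in DMSO and 103 and 109 in DEM (0.11 ± 0.09, limma adjusted p = 0.606). Trim25, a ubiquitin ligase that activates RIG-I, read 4280 and 4060 in DMSO and 4740 and 4880 in DEM (0.21 ± 0.09, limma adjusted p = 0.304). Whether Ddx58 differed from these relatives was not tested.

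The enzymes that act on double-stranded RNA were mixed. Eif2ak2, which encodes the kinase PKR, an inhibitor of translation, read 2210 and 2240 in DMSO and 1720 and 1850 in DEM (−0.32 ± 0.09, limma adjusted p = 0.177). Adar, the editor of adenosine to inosine, was measured by probes to different RefSeq transcripts, and they went opposite ways. The brighter one read 401 and 331 in DMSO and 294 and 230 in DEM (−0.49 ± 0.17, limma adjusted p = 0.247), with DEM lower. The other read 175 and 149 in DMSO and 184 and 190 in DEM (0.21, limma adjusted p = 0.426 when probes were tested singly), with DEM higher. Neither passed the threshold, and the difference between them was not tested.

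The oligoadenylate synthetase genes had low signals or wide spread. Oasl2, an OAS-like gene, read 31.6 and 29.2 in DMSO and 15.2 and 8.66 in DEM, and was not well above background on either DEM array. With the DMSO mean set against the lowest signal well above background, an approximate bound, it was 2.04-fold lower in DEM. The fitted change did not pass (limma adjusted p = 0.114). Since its DEM values are at background, its fitted change and the settings in which it passed are no support for a call. Oasl1, which restrains translation of Irf7, read 71.5 and 38.7 in DMSO and 41.9 and 24.7 in DEM, with overlap and a wide spread inside each group (−0.71 ± 0.40, 95% interval −1.80 to 0.37, limma adjusted p = 0.427). Oas1a, which makes the activator of RNase L, read 486 and 346 in DMSO and 427 and 373 in DEM (−0.04 ± 0.20, limma adjusted p = 0.944). It belongs to a family of close copies, and signal shared between them was not tested. Oas2 was well above background on 1 DMSO array, with signals of 23.6 and 8.34 in DMSO and 12.8 and 4.37 in DEM.

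**Figure D2:**
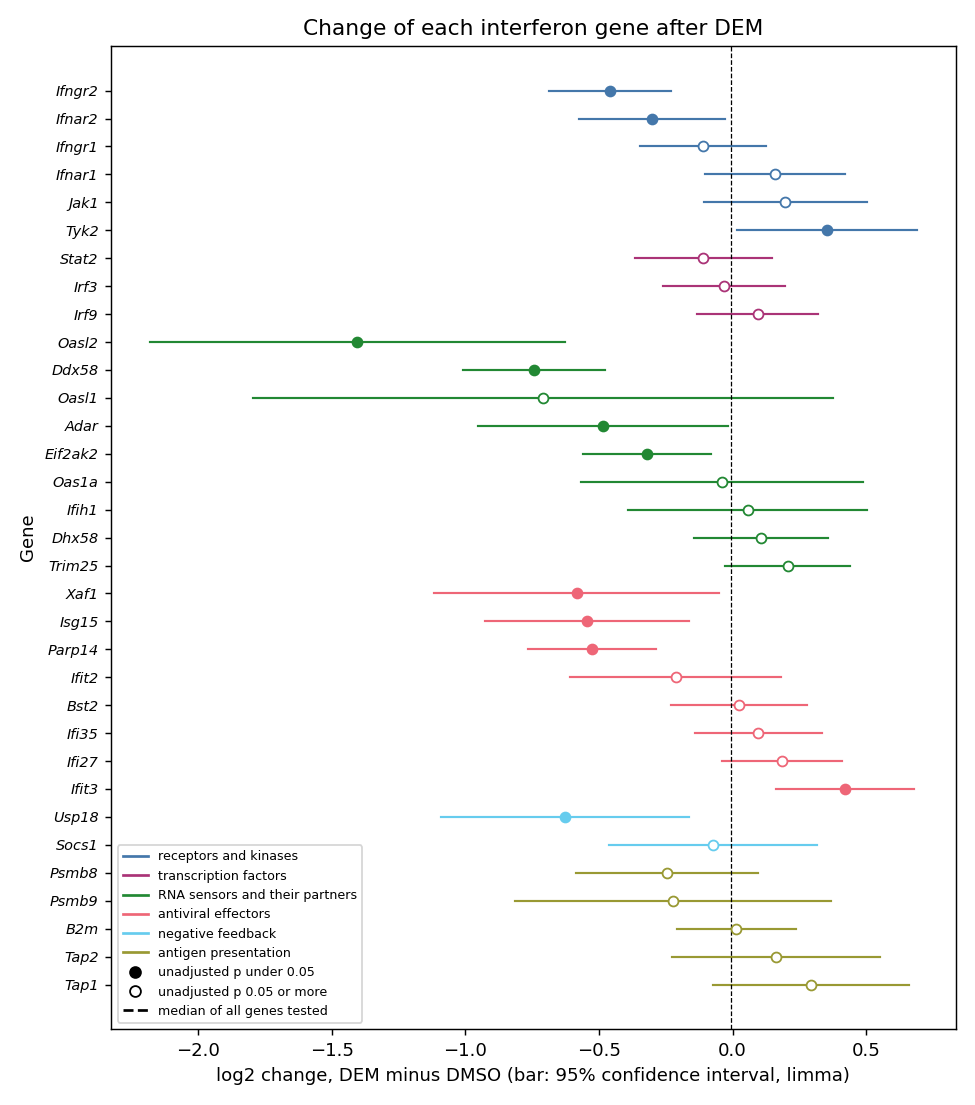
Log2 change from DMSO to DEM of each tested interferon gene with its 95% confidence interval from limma, coloured by role; filled points have an unadjusted p under 0.05, and the dashed line is the median of all genes. Filled points lie on the lower side for 10 genes (Oasl2, at background in DEM, among them) and on the higher side for Tyk2 and Ifit3, and 0 of the 33 passed after adjustment.

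The antiviral effectors went both ways, with 4 changes above 0 and 4 below among 8 tested (median −0.09). Isg15, the ubiquitin-like protein attached to other proteins after interferon, read 118 and 94.4 in DMSO and 75.7 and 68.9 in DEM. Both DEM arrays were lower, a 1.46-fold difference (log2 change −0.55 ± 0.14, limma adjusted p = 0.163). Parp14, an ADP-ribosyltransferase, read 1100 and 1030 in DMSO and 755 and 725 in DEM (−0.52 ± 0.09, limma adjusted p = 0.0845). Its dimmer tested probe read 16 and 20.1 in DMSO and 12.7 and 11.9 in DEM (−0.55). That probe was not well above background on either DEM array, so its change is not measured exactly. Xaf1, a pro-apoptotic partner of XIAP, read 175 and 128 in DMSO and 110 and 90.7 in DEM (−0.58 ± 0.20, limma adjusted p = 0.231). In each of these 3 genes the DEM arrays lay below the DMSO arrays. Parp14 passed after normexp (limma adjusted p = 0.0147), with an intensity trend (0.0275) and with spike-in scaling (0.0366), and Isg15 and Xaf1 with spike-in scaling.

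Ifit3 went the other way. This gene read 70.2 and 64.9 in DMSO and 87.5 and 93.3 in DEM, with both DEM arrays higher (1.34-fold, log2 change 0.42 ± 0.10, limma adjusted p = 0.134). It was above 0 in each of the 15 other settings, from 0.21 to 0.57, and passed in 0 of them. Several settings, such as the value table, the mean of probes and the intensity trend, cannot move the change of a gene with 1 probe. Ifit3 has a near-identical neighbour, and signal shared with it was not tested. Ifit2, of the same family, read 105 and 128 in DMSO and 92.8 and 107 in DEM, overlapping (−0.21 ± 0.15, limma adjusted p = 0.51). Ifit1, which binds RNA caps that lack host methylation, was at background on all 4 arrays, at 11.2 and 6.14 in DMSO and 3.80 and 2.99 in DEM. Rsad2, which encodes viperin, was also at background, with 0 of its 3 probes well above it on any array.

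Bright effector genes were nearly level. Bst2, the tetherin that holds budding virus at the cell surface, read 20100 and 18400 in DMSO and 19900 and 19200 in DEM, overlapping (0.02 ± 0.10, 95% interval −0.23 to 0.28, limma adjusted p = 0.928). Ifi27 read 11300 and 11000 in DMSO and 12700 and 12500 in DEM (0.18 ± 0.08, limma adjusted p = 0.329), and Ifi35 read 2420 and 2330 in DMSO and 2610 and 2470 in DEM (0.10 ± 0.09, limma adjusted p = 0.626). In both genes each DEM array lay above each DMSO array by a small margin.

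Of the negative regulators, Usp18, which removes ISG15 from proteins and blocks IFNAR2, read 1690 and 1330 in DMSO and 1070 and 880 in DEM. Its DEM arrays were both lower, by 1.54-fold (log2 change −0.63 ± 0.17, 95% interval −1.09 to −0.16, limma adjusted p = 0.175). It passed after normexp (limma adjusted p = 0.0476) and with spike-in scaling (0.0121). Socs1, an inhibitor of JAK kinases, read 294 and 271 in DMSO and 301 and 239 in DEM, overlapping (−0.07 ± 0.15, limma adjusted p = 0.838).

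Antigen presentation had 0 of 5 genes at an unadjusted limma p under 0.05 (19.2% of all genes), and 0 of the 5 after adjustment (1.22%). The immunoproteasome subunit genes Psmb8 and Psmb9 had log2 changes of −0.25 ± 0.13 and −0.22 ± 0.22, and the second Psmb8 probe gave −0.13. Without DMSO replicate 1 the value for Psmb9 was −0.0044. For the genes of the peptide transporter, Tap1 and Tap2, the values were 0.29 ± 0.14 and 0.16 ± 0.15, and Tap2 turned to −0.0044 after normexp. The DEM arrays of Psmb8 were below and those of Tap1 above both DMSO arrays, while Psmb9 and Tap2 overlapped. Psmb9 and Tap1 sit side by side in the genome and are known to share a promoter region between them. B2m, the light chain of class I molecules, read 33600 and 33000 in DMSO and 33900 and 33300 in DEM (0.01 ± 0.08, 95% interval −0.21 to 0.24, limma adjusted p = 0.951). Its second probe, printed on 10 spots, gave −0.02, so the B2m probes lay on either side of 0 by less than the spread between arrays.

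**Figure D3:**
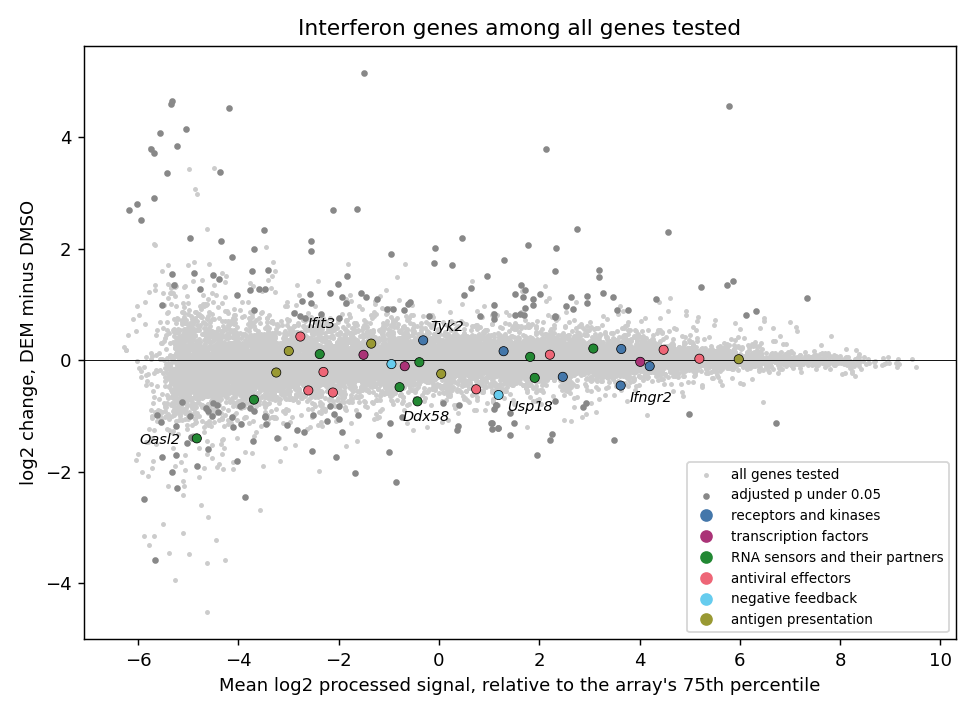
Log2 change from DMSO to DEM against mean log2 processed signal for the 15537 genes tested (light grey), those with an adjusted p under 0.05 (dark grey) and the 33 interferon genes (coloured by role). The 32 interferon genes well above background on all 4 arrays lie between −0.74 (Ddx58) and 0.42 (Ifit3), B2m being the brightest; the lowest point, Oasl2, is at background in DEM and its change is not measured exactly.

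Of the 33 tested genes, 10 had more than 1 tested probe. All tested probes of Ifngr2, Ifnar2, Ddx58, Parp14, Ifit2 and Psmb8 pointed down and both probes of Trim25 pointed up, while those of Jak1, Adar and B2m differed in sign. Among the genes lower at an unadjusted limma p under 0.05, Ifngr2 had a second probe of like size. The second tested Parp14 probe was at background in DEM and is no support for that gene's change. Ifnar2 and Ddx58 had other tested probes with smaller changes. Oasl2, Isg15, Xaf1, Usp18 and Eif2ak2 rest on 1 probe each.

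**Figure D4:**
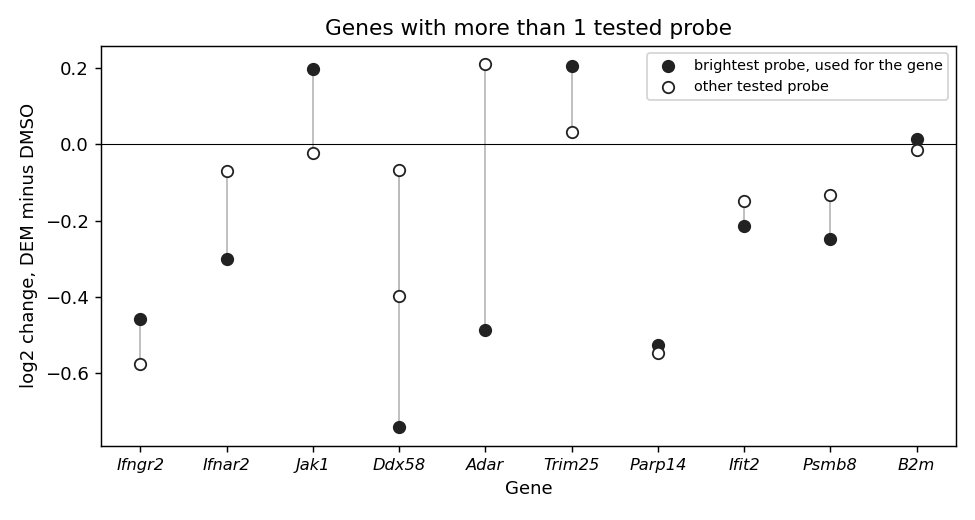
Log2 change from DMSO to DEM of each tested probe for the 10 interferon genes with more than 1; filled points are the brightest probe, used for the gene, and open points are the others. The probes of Adar lie farthest apart across 0, at −0.49 and 0.21. Those of Parp14 are at −0.52 and −0.55, the latter probe being at background in DEM.

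A wider list of 66 other pathway genes was read from the same fit. Of these, 48 were tested, 3 passed as lower, 0 passed as higher and 45 did not pass (median log2 change −0.07); at an unadjusted limma p under 0.05, 9 were lower (18.8%, against 10.2% of all genes) and 3 higher (6.25%, against 9.02%). Of the 48, 3 were not well above background on every array (Tlr3, Ifitm1 and Trim34a), and Tlr3 passed the filter through DMSO alone. Ifitm1 was well above background on both DMSO arrays and on 1 DEM array. Tlr3 and Ifitm1 were among the 9 lower, so the share of 18.8% rests in part on genes that were dim in DEM. The share of all genes passing as lower was 0.508%, and at least Cxcl10 was known to be lower when the list was written. Irf8, a transcription factor of myeloid cells and interferon responses, read 74.2 and 70.7 in DMSO and 32.8 and 32.5 in DEM, and fell by 1.15 on the log2 scale (limma adjusted p = 0.0325). Gbp3, an interferon-inducible GTPase, read 32.2 and 33.4 in DMSO and 18.1 and 19.4 in DEM, and fell by 0.81 (limma adjusted p = 0.0499). Its DEM signals lay near the lowest signals well above background on those arrays, 15.2 and 14.7. Cxcl10, an interferon-inducible chemokine, read 442 and 498 in DMSO and 140 and 161 in DEM, and fell by 1.64 (limma adjusted p = 0.0325). In all 3 both DEM arrays lay below both DMSO arrays. None of these calls held without DMSO replicate 1 or DMSO replicate 2. Those settings leave 1 DMSO array and ended the calls of all genes, so they cannot single out these 3. Without DEM replicate 1 or DEM replicate 2, Cxcl10 passed (0.0381 and 0.0328), while Irf8 (0.0553 and 0.0651) and Gbp3 (0.109 and 0.107) did not. Gbp3 also missed the threshold after normexp, where it was −0.30 (limma adjusted p = 0.0862), with quantile normalization (0.0798), with median scaling (0.059), with an intensity trend (0.113), with every probe on its own (0.0505) and with the replicate block (0.0539). With no filter on dim probes 0 of all 32288 genes passed, so none of the 3 did (limma adjusted p of 0.202 for Irf8 and Cxcl10 and 0.225 for Gbp3).

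Of the interferon genes on the wider list, Ifnb1, Ifna4 and Ifnl3 were not well above background on any array, and Ifnl2 had no named probe. For Irf1, a transcription factor of the same family as IRF3, the log2 change was −0.23 ± 0.09 (limma adjusted p = 0.277). Of 9 further antigen presentation genes 8 were tested, 0 passed (1.22% of all genes) and 0 had an unadjusted limma p under 0.05 (19.2%). Their log2 changes ran from −0.18 (Psme1, a proteasome activator subunit) to 0.13 (Calr, a chaperone), and the class I heavy chain genes H2-K1 and H2-D1 had −0.05 and 0.08.

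**Figure D5:**
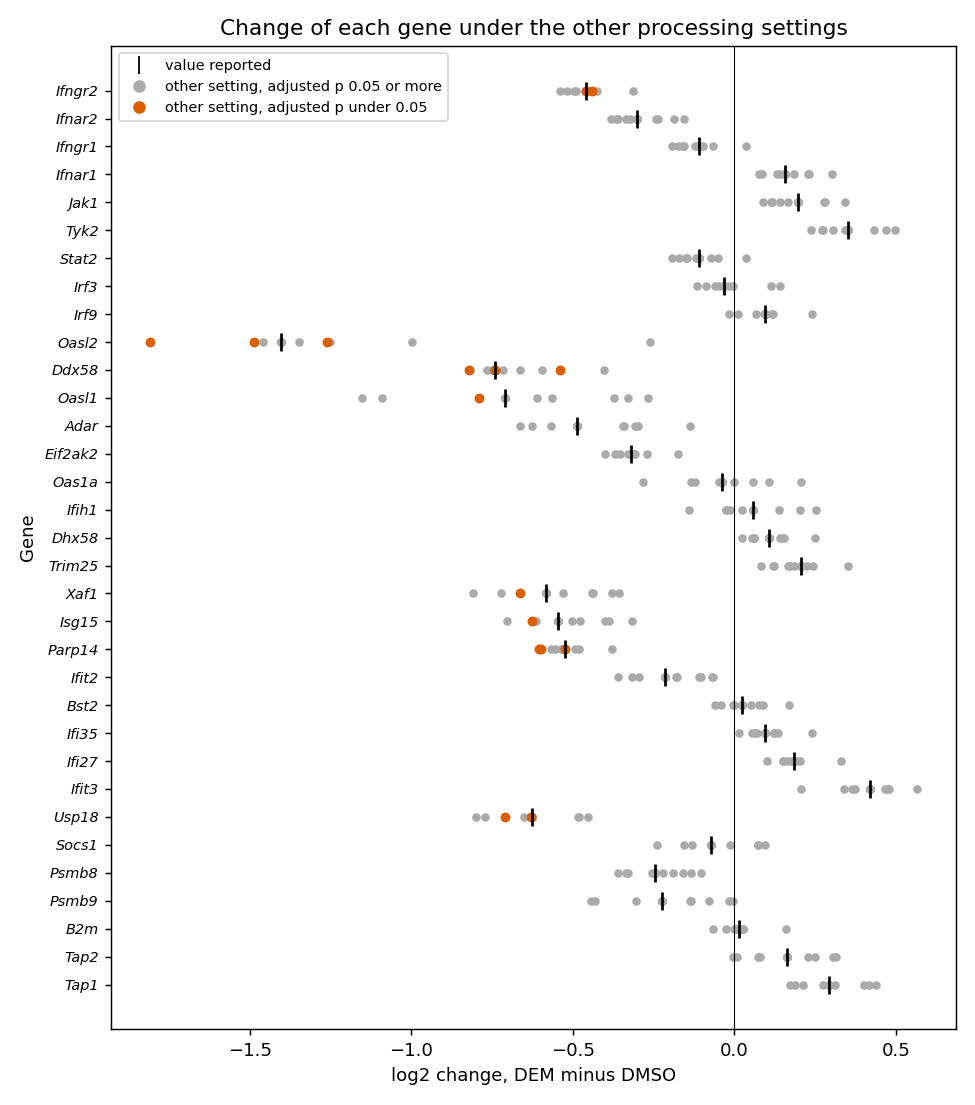
Log2 change from DMSO to DEM of each tested interferon gene as reported (black bar) and under up to 15 other processing settings (dots); orange dots passed an adjusted p under 0.05. Orange dots occur for 8 genes (Oasl2, at background in DEM, among them), all with changes below 0, and 23 of the 33 genes kept their sign in every setting run for them. Some settings, such as the value table and the intensity trend, cannot move a gene's change.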

How the data were processed

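Each Cy3 target was made from 500 ng of RNA, per the labels' protocols. Per the file headers, the 1-colour Agilent arrays shared 1 slide and 1 scan time, so neither could be tested as a batch, and were read with Feature Extraction 10.7.3.1. The deposited values are processed signals, an intensity on a linear scale, with flags; the authors' value table held the same intensity for all 45018 spots (column medians 13.8 to 16.2, so uncentred). From these, log2 signals were taken minus each array's 75th percentile over 43379 non-control spots. Outlier spots were dropped, spots of a probe averaged, and 22 of 41174 probes without an unflagged spot left out. Names came from a RefSeq table (GRCm38.p6), giving 26690 probes 1 symbol. A probe well above background on at least 2 of 4 arrays was tested, the brightest per gene. limma 3.58.1 in R 4.3.3 compared DEM with DMSO over 15537 genes (Benjamini-Hochberg, 0.05). The fit was also run on data simulated with independent errors from limma's own variance estimate, which cannot test how it handles real array error. Where 0 arrays of a group held a gene well above background, the fold is a bound, with each dim array set at its lowest signal well above background, or at the gene's own signal if higher. The bound is approximate, since a probe above that lowest signal can still lack the flag. Array values were named for the 12 largest changes among genes well above background on all 4 arrays, bounded genes and genes whose probes differ in sign; other values were added for description. Normexp used the median spot signal and median local background, with an offset of 50. The members, lists and alternatives were chosen with earlier results of these data known.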

Additional observations from a re-analysis of the deposited data

How the results depend on the processing

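Of 15 other settings, the value table, the mean of a gene's probes, every probe on its own and the replicate block left the count of all genes called within 1.5 times of 190. It was 800 after normexp, 93 with quantile normalization, 567 with median scaling, 1329 with spike-in scaling, 426 with the filter on all 4 arrays, 726 with an intensity trend, and 0 with no filter on dim probes (limma; 3165 at an unadjusted p under 0.05). Leaving out an array gave 0 to 121: 0 without DMSO replicate 1 (2113 at an unadjusted limma p under 0.05) or DMSO replicate 2 (2015), 121 without DEM replicate 1 and 102 without DEM replicate 2. Rises made up 58.4% of the calls, 71.3% with median scaling and 28.4% with spike-in scaling, which moved the median of all genes from −0.01 to 0.14 and −0.09. Of the interferon genes, 4 passed after normexp (Ifngr2, Ddx58, Parp14, Usp18), 7 with spike-in scaling (Ddx58, Oasl1, Oasl2, Isg15, Xaf1, Parp14, Usp18), 3 with an intensity trend (Ifngr2, Ddx58, Parp14), 1 with the filter on all 4 arrays (Ddx58), 1 with median scaling (Oasl2), and 0 to 1 with an array left out (Oasl2 without DEM replicate 1). Oasl2 is at background in DEM. With spike-in scaling the adjusted p of the 7 rose as the size of the change fell, whatever the gene's spread. Oasl1, with its wide spread and overlapping arrays, had 0.00919 there, and Parp14, with a narrow spread, had 0.0366 (limma adjusted p). A pass in that setting thus says little about how well a gene's arrays agree. The median of the interferon genes, −0.07, became 0.072 with median scaling and −0.15 with spike-in scaling. The cause of these shifts was not tested.

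Signs turned for 10 of the 33 genes, none of which passed in any setting. After normexp Irf9 had −0.017, Irf3 0.14, Ifih1 −0.013, Socs1 0.073 and Tap2 −0.0044. With quantile normalization Bst2 had −0.0013 and B2m −0.027. With median scaling Ifngr1 had 0.035, Stat2 0.035, Irf3 0.11, Oas1a 0.11 and Socs1 0.072. With spike-in scaling Ifih1 had −0.025, Bst2 −0.058 and B2m −0.067, and with the mean of probes B2m had −7e-04. With an array left out Ifih1 ran from −0.14 to 0.25, Oas1a from −0.28 to 0.21, Bst2 from −0.042 to 0.089 and Socs1 from −0.24 to 0.094. The replicate numbers are shared labels, not a stated pairing: deviations of replicate 1 from the group means correlated at 0.138 across genes, and the replicate block gave 143 calls over all genes and 0 among the interferon genes. Signals near background limit Oasl2, Oasl1, Ifit1, Irf7, Oas2 and Rsad2, and genes of the wider list such as Gbp3 and Tlr3.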

Other observations

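Other genes of the wider list, chosen here after their values were seen, had large changes that did not pass the threshold. Rtp4, an interferon-inducible gene, read 277 and 145 in DMSO and 67.7 and 37.9 in DEM (log2 change −1.98 ± 0.43, limma adjusted p = 0.124), the largest change among the 48 tested. Ikbke, a kinase that phosphorylates IRF3, read 526 and 619 in DMSO and 270 and 212 in DEM (−1.25 ± 0.16, limma adjusted p = 0.0594), while its relative Tbk1 read 1110 and 1310 in DMSO and 1550 and 1610 in DEM (0.39 ± 0.12, limma adjusted p = 0.199). Irf5 read 79.8 and 72.7 in DMSO and 51.6 and 27.2 in DEM (−1.02 ± 0.33, limma adjusted p = 0.212). Ifi204, a DNA-binding interferon-inducible gene, went the other way, at 260 and 283 in DMSO and 465 and 454 in DEM (0.76 ± 0.09, limma adjusted p = 0.0541). Tlr3, an endosomal receptor for double-stranded RNA, read 22.2 and 21.7 in DMSO and was not well above background in DEM, at 13.9 and 11.2.

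Ifi44 read 77.3 on DMSO replicate 2 and 2.98 to 3.16 on the other arrays, and Ptprc, a leukocyte marker, read 91.1 there and 3.06 to 4.34 on the others. In all, 90 probes on that array, 86 on DMSO replicate 1, 120 on DEM replicate 1 and 38 on DEM replicate 2 were well above background and at least 10-fold above the same probe on each other array.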
